A study of Homo sapiens with 4 samples.

Results

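The genes described here are 50 nuclear transport genes of a breast cancer line, 26 coding for subunits of the nuclear pore complex and 24 for the receptors that carry cargo through it, with the GTPase gene RAN counted among the receptors. They were chosen by gene symbol, with earlier results of these data known. All 50 had a row among the 20263 Ensembl gene IDs of the count table, and all 50 passed the filter on low counts. Messenger RNA was sequenced from MDA-MB-231, a much used human cell line of triple-negative breast cancer, after 24 h with Neoribocic or with DMSO, a solvent used as the control. The groups were Neoribocic (2 libraries) and DMSO (2 libraries), and both were grown in medium with 10% fetal bovine serum. The series title connects the compound to a block of the cell cycle; no dose was found in the labels. The treatment protocol names Rib_CA instead of Neoribocic, and both names were read as the same treatment. Nothing in the labels tells whether the libraries within a group were separate cultures. The p-values therefore rest on a spread between samples that could be technical alone.

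The nuclear pore complex is a ring of proteins set into the nuclear envelope. Scaffold subunits (the Y complex and the inner ring) curve the membrane and hold subunits rich in phenylalanine-glycine repeats, which fill the channel and bind transport receptors. Importins bring proteins with a nuclear localization signal into the nucleus, exportins take cargo out, and the GTP-bound form of RAN, kept high inside the nucleus, makes importins release cargo and exportins bind it. The envelope and its pores are taken apart and rebuilt at each mitosis in human cells, and pores are also added during interphase.

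The libraries held 41572094 and 43014212 counts for Neoribocic and 34774542 and 37754168 for DMSO. Replicates correlated at 0.982 (Neoribocic) and 0.977 (DMSO) on log2 CPM across genes, which are not independent replicates. Mitochondrial genes held 5.76% and 7.24% of the counts with Neoribocic, against 8.68% and 21.7% with DMSO. All 5 markers listed for the line were expressed in each library, with VIM (vimentin) at 2804 and 3025 CPM with Neoribocic and 3507 and 4238 CPM with DMSO. VIM was not called (log2 fold change -0.41). The other 4 fell, EGFR at -1.47, CAV1 at -1.42, AXL at -0.60 and CD44 at -0.58. The calls of EGFR and CAV1 held under all 17 alternative runs listed below, that of AXL under 11 and that of CD44 under 8. With the correction described below CD44 stood at 0.02 and was not called. VIM was then called lower, at -0.81 (edgeR adjusted p = 0.0224). The part of these marker changes in the results below was not tested. Of 7 markers of other cells, CDH1 (E-cadherin) did not exceed 0.141 CPM, ESR1 (the estrogen receptor) 0.649 CPM and PTPRC (CD45) 0.620 CPM in any library. PGR reached 1.77 CPM, PECAM1 1.16 CPM and GATA3 21.8 CPM, and EPCAM, another epithelial marker, lay between 9.31 and 9.93 CPM in all libraries. All levels below are counts relative to library size (CPM), scaled by TMM, the trimmed mean of M values, and fold changes are on the log2 scale, Neoribocic over DMSO, with their standard error (SE). In a bulk sample, fewer cells of a type and less RNA per cell cannot be told apart.

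With Neoribocic 32 of the 50 genes fell and 1, TNPO2, rose (edgeR's quasi-likelihood test, Benjamini-Hochberg adjusted p below 0.05 over all 13879 genes tested). Among all genes tested 40.4% were called, 21.3% lower and 19.1% higher. The deepest falls were those of TPR, a nuclear basket protein, to 35.8 ± 0.944 CPM with Neoribocic against 387 ± 89.9 CPM with DMSO (SD, n = 2 each), and of CSE1L, the exportin of importin alpha, to 82.6 ± 11.1 CPM with Neoribocic against 540 ± 65.1 CPM with DMSO. The summed level of the 50 genes was 4063 and 4458 CPM with Neoribocic and 9224 and 8261 CPM with DMSO. Both Neoribocic libraries lay below both DMSO libraries for 40 of the 50 genes and above them for 2, while this held for 37.3% and 37.8% of all genes tested. The median log2 fold change was -1.11 over the 50 genes and 0.01 over all genes tested. Leaving out Neoribocic replicate 1 reduced the falls to 21 of 50, with a median of -0.93; leaving out DMSO replicate 1 left 28 falls and 2 rises.

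Fold changes in these libraries went with transcript length and GC content. Over 13862 genes Spearman's rho of the log2 fold change was -0.40 with length and 0.45 with GC content; over the 50 transport genes it was -0.26 and 0.41, values that share the same 4 libraries and are given as a description. The 50 genes had longer transcripts than the genes tested, with a median of 5128 against 3105.5 bases, and a lower GC content, 43.5% against 49.4%. After a correction that removed a smooth surface of length and GC content from each library, 26 of the 50 genes fell and 4 rose, among 19.1% of all genes called lower and 17.2% called higher. The median of the 50 genes was then -0.49, and 22 of the 32 falls passed. Each fold change called corrected below is from this fit.

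**Figure D1:**
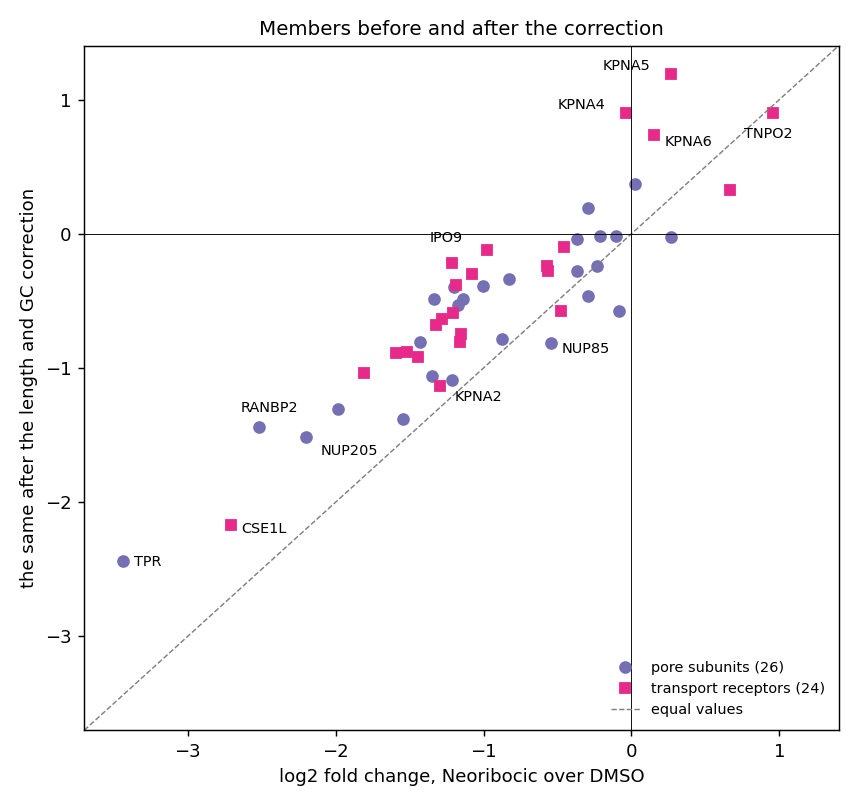
Log2 fold change of the 50 genes (Neoribocic over DMSO) before the correction on the x axis and after it on the y axis, pore subunits as circles and receptors as squares, with a dashed line of equal values. Most points lie above the line, TPR and CSE1L stay lowest at -2.44 and -2.17, and KPNA4, KPNA5 and KPNA6 move to between 0.74 and 1.19.

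The genes were chosen to ask how pore subunits compare with importins and exportins. Of the 26 pore subunits 15 fell (57.7%) and 0 rose, with a median of -0.94; with the correction 14 fell and 0 rose, with a median of -0.49. No pore subunit was higher at an unadjusted p below 0.05, or with DESeq2 or limma-voom. Of the 24 receptor genes 17 fell (70.8%) and 1 rose, with a median of -1.16; with the correction 12 fell and 4 rose, with a median of -0.48. Within the receptors 10 of 16 importins fell and 1 rose, at a median of -1.17, and 6 of 7 exportins fell and 0 rose, at a median of -1.15. With the correction 8 importins fell and 4 rose, at a median of -0.48, and 4 exportins fell, at a median of -0.57. Without Neoribocic replicate 1 the medians were -0.87 for pore subunits, -0.95 for importins and -1.01 for exportins, and each class had fewer falls. DESeq2 and limma-voom also called 0 exportins higher, as did an unadjusted p below 0.05. The medians of the pore subunits and the receptors were not set against each other in a test.

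**Figure D2:**
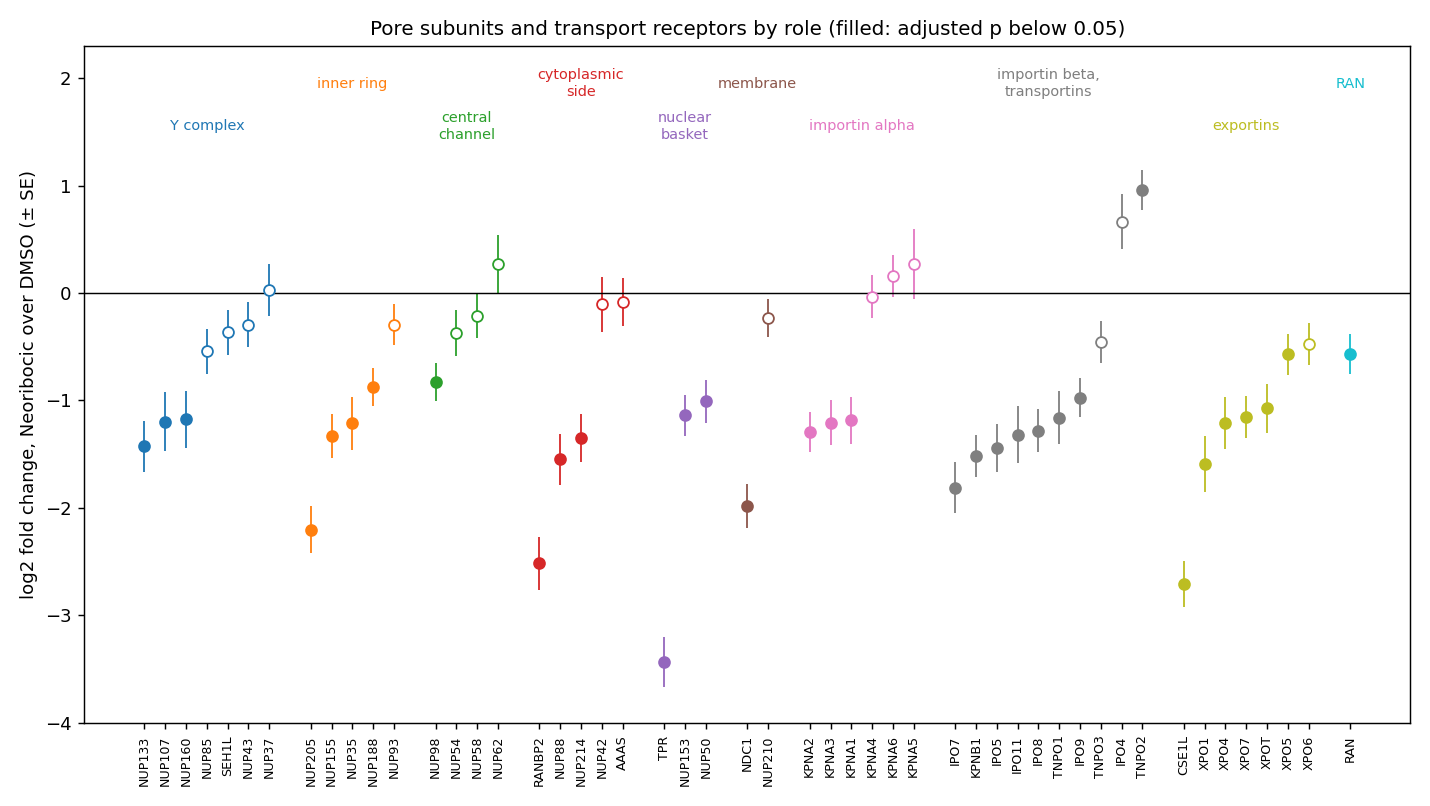
Log2 fold change of each of the 50 genes, Neoribocic over DMSO, with its SE, by role from left to right; filled points passed the edgeR threshold of an adjusted p below 0.05. TPR, at -3.44, is the lowest point, and TNPO2, at 0.96, is the only filled point above 0.

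**Figure D3:**
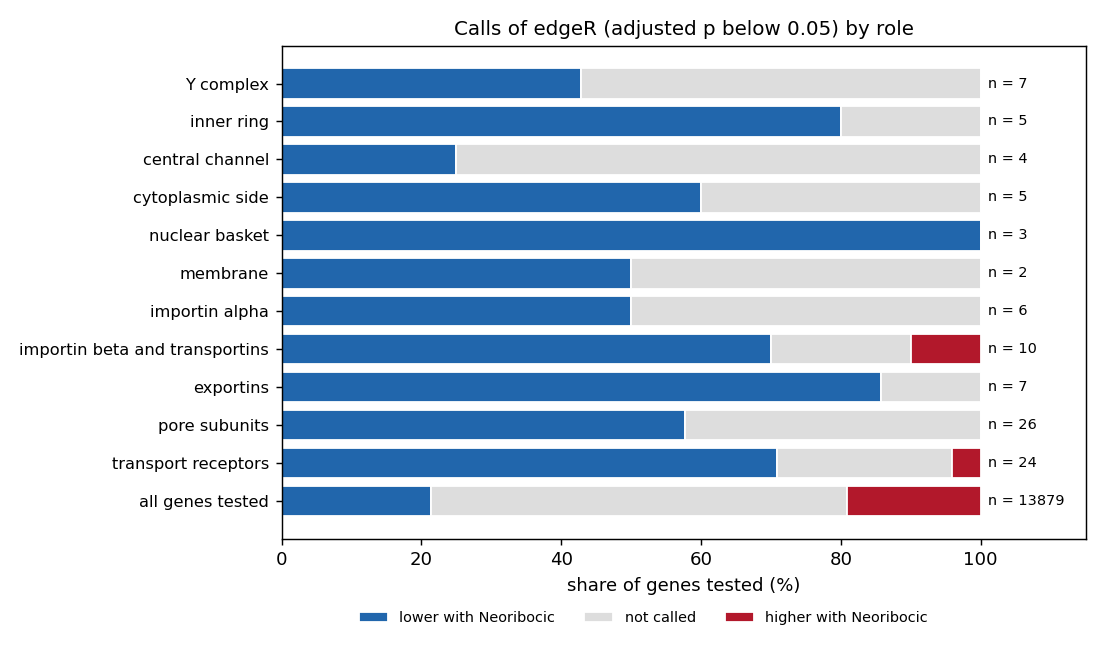
Share of genes called lower, not called and called higher in each role, in percent of the genes tested, with the number of genes at the right of each bar. The lower share is 57.7% among pore subunits and 70.8% among receptors, against 21.3% among all genes tested; with the correction 14 of 26 pore subunits and 12 of 24 receptors were lower.

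Promoter windows from RefSeq (GRCh38.p14, 250 bases before to 50 after a gene's start) were found for 45 of the 50 genes, in 56 windows. The cell cycle homology region (CHR), an element bound by the MuvB complexes that repress or activate mitotic genes, was searched as TTTGAA and TTCGAA on both strands. It was present in 12 of 38 windows of the genes that fell (31.6%), in 3 of 16 windows of the genes that were not called and in 0 of 2 windows of TNPO2, against 16.4% of all 35116 windows. Windows of the same gene can overlap, as those of NUP98 do. By gene, it was present in 11 of 30 genes that fell and 2 of 14 that were not called, against 5336 of all 27305 genes. By class, 10 of 31 windows of pore subunits and 5 of 25 windows of receptors held it. CCAAT, searched on both strands, was in 25 of the 56 windows (44.6%) and in 34.6% of all windows. It was in 17 of 38 windows of the genes that fell (44.7%) and in 7 of 16 of the genes not called (43.8%). The E2F letters TTTGGCGC, TTTGCCGC, TTTCGCGC and TTTCCCGC were in 3 of 56 (5.36%) against 3.31%, and the NRF1 letters, GCGC and TGCGC with any 1 base between them, in 8 of 56 (14.3%) against 5.78%. Between genes that fell and genes not called, the E2F letters were in 3 of 38 and 0 of 16 windows. The NRF1 letters were in 7 of 38 and 1 of 16. A match is a string of letters and no measured site.

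The last 170 bases before the start are shown for 5 genes that fell and hold both a CHR and a CCAAT match there, and for TNPO2, the gene that rose, which holds CCAAT only. The pair was not limited to genes that fell, and its share over all windows was not counted. NUP37 and NUP93, which were not called and are not printed, also hold both within this distance. In NUP37 the CHR match begins 66 bases and CCAAT 39 bases before the start, and in window 3 of NUP93 they begin 24 and 59 bases before it. Capitals mark the CHR letters given above and CCAAT, each as it reads here or as its reverse complement. The stretches are chr20:49046142-49046311 (plus strand) for CSE1L, chr17:68035565-68035734 (plus) for KPNA2, chr2:183124273-183124442 (plus) for NUP35, chr11:3797547-3797716 (minus) for NUP98, chr7:135557747-135557916 (plus) for NUP205 and chr19:12723933-12724102 (minus) for TNPO2.
CSE1L: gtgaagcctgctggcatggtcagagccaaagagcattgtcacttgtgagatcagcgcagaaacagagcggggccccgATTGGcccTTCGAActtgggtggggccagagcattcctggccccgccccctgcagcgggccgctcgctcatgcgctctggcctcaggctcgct
KPNA2: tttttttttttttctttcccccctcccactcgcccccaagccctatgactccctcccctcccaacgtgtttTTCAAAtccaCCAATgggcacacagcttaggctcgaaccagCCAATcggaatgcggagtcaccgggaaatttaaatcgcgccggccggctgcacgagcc
NUP35: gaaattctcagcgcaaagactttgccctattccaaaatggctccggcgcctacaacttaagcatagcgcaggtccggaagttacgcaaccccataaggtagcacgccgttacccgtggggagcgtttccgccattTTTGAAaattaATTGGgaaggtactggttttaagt
NUP98: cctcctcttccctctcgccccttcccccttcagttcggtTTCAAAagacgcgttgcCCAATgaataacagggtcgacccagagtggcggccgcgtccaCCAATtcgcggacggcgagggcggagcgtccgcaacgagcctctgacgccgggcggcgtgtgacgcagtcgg
NUP205: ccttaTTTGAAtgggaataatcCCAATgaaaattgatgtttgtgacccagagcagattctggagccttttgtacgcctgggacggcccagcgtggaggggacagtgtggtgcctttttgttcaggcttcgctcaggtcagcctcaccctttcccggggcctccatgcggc
TNPO2: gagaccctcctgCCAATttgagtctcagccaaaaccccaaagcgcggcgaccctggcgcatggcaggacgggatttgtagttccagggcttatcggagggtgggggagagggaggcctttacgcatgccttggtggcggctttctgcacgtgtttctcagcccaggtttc
In CSE1L the letters TTCGAA begin 85 bases before the start, and the CCAAT match begins 93 bases before it. In KPNA2 the order is turned, with the CHR match 99 bases and the first CCAAT 89 bases before the start. NUP35, NUP98 and NUP205 have the same order as KPNA2. CSE1L and KPNA2 each hold a further CHR match beyond the stretch shown, at bases 21 and 33 after the start.

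The Y complex is the outer scaffold ring of the pore, and 3 of its 7 genes among the 50 fell, with a median of -0.54 (SEC13 and AHCTF1, also of this complex, are given with the further pore genes). NUP133 (ENSG00000069248), a beta-propeller subunit of its stem, had 27.6 and 32.1 CPM with Neoribocic and 92.7 and 67.9 CPM with DMSO, a log2 fold change of -1.43 ± 0.23 (edgeR adjusted p = 0.00279; corrected -0.81). NUP160, which forms an arm of the Y with NUP37, had 31.7 and 37.4 CPM with Neoribocic and 96.0 and 60.2 CPM with DMSO, a change of -1.18 ± 0.26 (edgeR adjusted p = 0.00962). NUP107, the partner of NUP133, had 20.7 and 25.8 CPM with Neoribocic and 65.3 and 41.6 CPM with DMSO, a change of -1.20 ± 0.27 (edgeR adjusted p = 0.0100). For each of the 3 genes the groups did not overlap, and DMSO replicate 1 was the highest library. The calls of NUP160 and NUP107 were lost without DMSO replicate 1 (edgeR adjusted p = 0.0566 and 0.0603), without Neoribocic replicate 1 (0.0738 and 0.0775) and with the correction (-0.53 and -0.40, adjusted p = 0.0874 and 0.141). NUP85 stood at -0.54, below the threshold only with DESeq2 (adjusted p = 0.0468) and, at -0.81, with the correction (edgeR adjusted p = 0.0137). SEH1L, shared with the GATOR2 complex of nutrient sensing, stood at -0.37, NUP43 at -0.30 (0.19 corrected) and NUP37, the smallest change of the group, at 0.03 (0.37 corrected).

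The inner ring holds the pore to the membrane and anchors the channel. Of its 5 genes 4 fell, with a median of -1.21, or -0.78 corrected. NUP205 (ENSG00000155561), a large solenoid scaffold protein, had 33.3 and 37.6 CPM with Neoribocic and 186 and 140 CPM with DMSO, a change of -2.20 ± 0.22 (edgeR adjusted p = 6.57e-04; corrected -1.51). NUP155, a membrane-binding scaffold protein, had 47.4 and 59.1 CPM with Neoribocic and 140 and 128 CPM with DMSO, a change of -1.33 ± 0.21 (edgeR adjusted p = 0.00216; corrected -0.48). NUP35, a small linker between them, was the least abundant at 7.75 and 7.48 CPM with Neoribocic and 19.9 and 15.4 CPM with DMSO, a change of -1.21 ± 0.25 (edgeR adjusted p = 0.00641). These 3 calls held with each library left out. NUP188, the paralog of NUP205, fell less, by 0.87 ± 0.18, with 147 CPM in both Neoribocic libraries against 272 and 267 CPM with DMSO. Its edgeR adjusted p was 0.00660, and 0.0510 without Neoribocic replicate 1. NUP93, which ties the inner ring to the channel, stood at -0.29 and passed only with the correction (-0.46, edgeR adjusted p = 0.0389).

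The central channel genes moved least among the pore groups with more than 3 genes, with a median of -0.29 and 1 of 4 genes lower. NUP98 (ENSG00000110713), whose transcript also encodes the Y complex subunit NUP96 in a joint precursor, had 136 and 131 CPM with Neoribocic and 232 and 243 CPM with DMSO, a change of -0.83 ± 0.18 (edgeR adjusted p = 0.00841). Its call was lost without Neoribocic replicate 1 (-0.84, adjusted p = 0.0558) and with the correction (-0.34, adjusted p = 0.0986). NUP62, NUP58 and NUP54 form the trimer whose repeats fill the channel. NUP62 stood at 0.27 (-0.03 corrected), NUP58 at -0.21 and NUP54 at -0.37, and none of the 3 passed under any alternative run. NUP62 had 154 and 139 CPM with Neoribocic and 154 and 89.1 CPM with DMSO, so that its groups overlapped. Of its exon bases 10.4% lie opposite exons of ATF5, and 12.0% are shared with a gene on the same strand, so some of its reads may be counted elsewhere.

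Of 5 genes of the cytoplasmic side 3 fell, with a median of -1.35. RANBP2 (ENSG00000153201) encodes the cytoplasmic filament protein that binds RAN and acts as a SUMO ligase. It had 24.3 and 29.9 CPM with Neoribocic and 183 and 128 CPM with DMSO, a change of -2.52 ± 0.25 (edgeR adjusted p = 6.38e-04; corrected -1.44). Its transcript shares 27.1% of its 50-base words with other annotated genes, first among them RGPD3 of the RGPD copies, so its level is uncertain. NUP88, which binds NUP98 and NUP214, had 34.9 and 42.5 CPM with Neoribocic and 131 and 95.2 CPM with DMSO, a change of -1.55 ± 0.24 (edgeR adjusted p = 0.00210). Of its exon bases 18.7% lie opposite RPAIN. NUP214, a repeat protein that docks XPO1 and the RNA helicase of mRNA export, had 81.2 and 79.9 CPM with Neoribocic and 168 and 241 CPM with DMSO, a change of -1.35 ± 0.22 (edgeR adjusted p = 0.00286). The 3 calls held under each alternative run. NUP42, a cofactor of that helicase, stood at -0.11 and AAAS (aladin), recruited to the pore by NDC1, at -0.08; AAAS passed with the correction alone (-0.58, edgeR adjusted p = 0.0260).

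All 3 nuclear basket genes fell. TPR (ENSG00000047410) encodes the coiled-coil protein that forms the basket filaments. It had 35.1 and 36.4 CPM with Neoribocic and 451 and 324 CPM with DMSO, and its change of -3.44 ± 0.23 (edgeR adjusted p = 4.81e-04) was the largest of the 50 genes in either direction. By this estimate TPR was 10.8-fold higher with DMSO, and after the correction the change was -2.44 ± 0.17. NUP153, the repeat protein to which TPR docks, had 92.0 and 109 CPM with Neoribocic and 217 and 226 CPM with DMSO, a change of -1.14 ± 0.19 (edgeR adjusted p = 0.00305). With the correction it stood at -0.49 (edgeR adjusted p = 0.0411). Per length, the ratio of TPR to NUP153 was 0.216 and 0.188 in the Neoribocic libraries and 1.17 and 0.809 in the DMSO libraries. NUP50, a basket repeat protein that helps importin alpha release its cargo, had 50.2 and 60.1 CPM with Neoribocic and 114 and 108 CPM with DMSO, a change of -1.01 ± 0.20 (edgeR adjusted p = 0.00580). Of the 50-base words of NUP50 15.3% occur in other annotated genes. Its call was lost without Neoribocic replicate 1 (adjusted p = 0.0537) and with the correction (-0.39, adjusted p = 0.0602).

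Of the membrane proteins NDC1 (ENSG00000058804), which inserts pores into the envelope, had 29.9 and 33.6 CPM with Neoribocic and 132 and 119 CPM with DMSO. Its change was -1.98 ± 0.20 (edgeR adjusted p = 6.86e-04; corrected -1.31). NUP210, the other transmembrane subunit among the 50, stood at -0.23 ± 0.18 (edgeR adjusted p = 0.326), with 209 and 197 CPM with Neoribocic and 235 and 241 CPM with DMSO. Its libraries did not overlap between groups, but the difference did not pass.

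**Figure D4:**
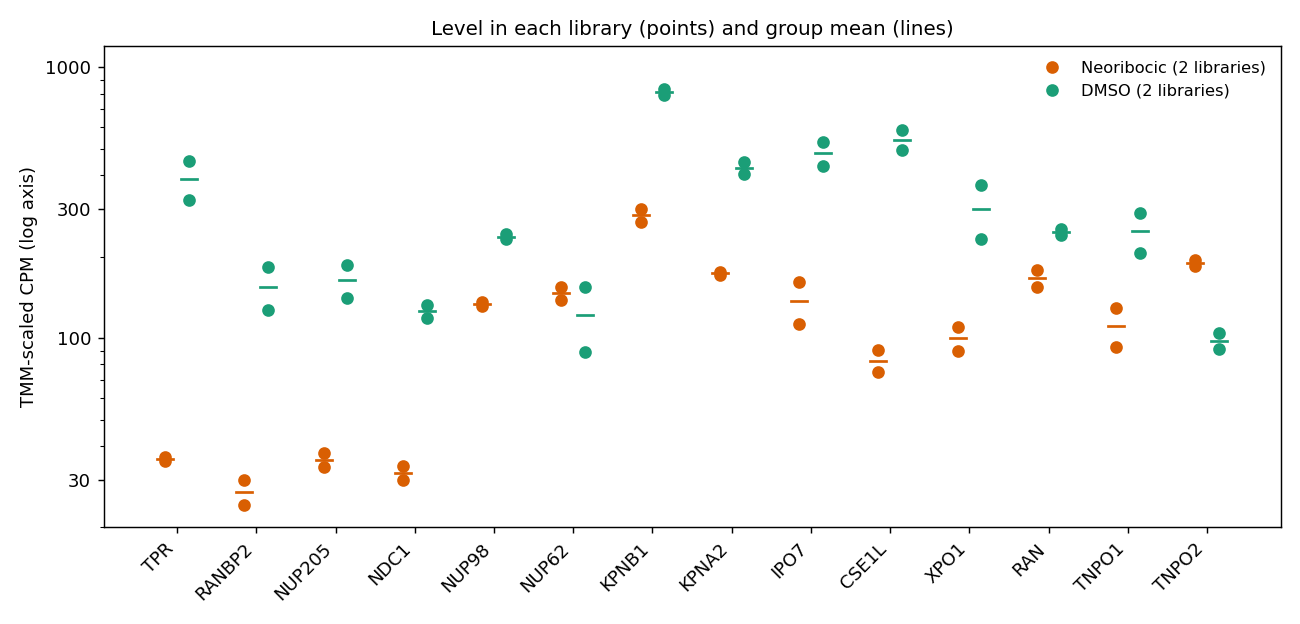
TMM-scaled CPM on a log axis in each library for 14 of the 50 genes, Neoribocic to the left of DMSO; points are libraries and lines are the group means. TPR lies at 35.1 and 36.4 CPM with Neoribocic and at 451 and 324 CPM with DMSO, NUP62 overlaps between the groups, and TNPO2 is higher with Neoribocic.

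Importin alpha proteins bind the classical nuclear localization signal and hand the cargo to importin beta. Of their 6 genes 3 fell and 0 rose; DESeq2, limma-voom and an unadjusted p below 0.05 also gave 0 rises. KPNA2 (ENSG00000182481), the form abundant in dividing cells, had 171 and 176 CPM with Neoribocic and 404 and 447 CPM with DMSO, a change of -1.30 ± 0.19 (edgeR adjusted p = 0.00169; corrected -1.14). Of its 50-base words 17.3% occur in other annotated genes, pseudogene copies among them. KPNA3 had 35.2 and 43.2 CPM with Neoribocic and 92.9 and 88.1 CPM with DMSO, a change of -1.21 ± 0.21 (edgeR adjusted p = 0.00343; corrected -0.59). KPNA1 had 57.8 and 79.8 CPM with Neoribocic and 156 and 158 CPM with DMSO, a change of -1.19 ± 0.22 (edgeR adjusted p = 0.00418). KPNA1 lost its call with the correction (-0.38, adjusted p = 0.0980), and 16.3% of its exon bases lie opposite another gene.

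The other importin alpha genes were not called, and their groups overlapped. KPNA4, the paralog of KPNA3, had 154 and 195 CPM with Neoribocic and 172 and 186 CPM with DMSO, a change of -0.03 ± 0.20. KPNA6, close to KPNA1 and KPNA5, had 116 and 144 CPM with Neoribocic and 117 CPM in both DMSO libraries, a change of 0.15 ± 0.20. KPNA5, at 4.97 and 7.54 CPM with Neoribocic and 6.2 and 4.18 CPM with DMSO, stood at 0.27 ± 0.33. With the correction all 3 were called higher, KPNA4 at 0.90, KPNA6 at 0.74 and KPNA5 at 1.19 (edgeR adjusted p = 0.0111, 0.0110 and 0.0125), so that the direction of KPNA4 turned. Their annotated transcripts, at 8981, 7378 and 11311 bases, were among the 9 longest of the 50. Per length, KPNA2 was the most abundant of the 50 genes in both groups, at 70.6 CPM per kb with Neoribocic and 173 with DMSO. The ratio of KPNA4 to KPNA2 was 0.247 and 0.304 in the Neoribocic libraries and 0.117 and 0.114 in the DMSO libraries.

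Importin beta and its relatives carry cargo directly or through adaptors, and 7 of their 10 genes fell while 1 rose, with a median of -1.22. KPNB1 (ENSG00000108424), importin beta itself, had 269 and 299 CPM with Neoribocic and 794 and 833 CPM with DMSO, a change of -1.52 ± 0.19 (edgeR adjusted p = 0.00115; corrected -0.88). IPO7, which imports ribosomal proteins and histone H1, had 113 and 161 CPM with Neoribocic and 528 and 434 CPM with DMSO, a change of -1.81 ± 0.24 (edgeR adjusted p = 0.00127; corrected -1.04). IPO5, another importer of ribosomal proteins, had 84.9 and 106 CPM with Neoribocic and 295 and 224 CPM with DMSO, a change of -1.44 ± 0.22 (edgeR adjusted p = 0.00220; corrected -0.92). The groups of each gene stood apart, and the 3 calls held under each alternative run. Also lower were IPO8, the paralog of IPO7, at -1.28 (corrected -0.63), IPO11 at -1.32 (corrected -0.68) and IPO9, a histone importer, at -0.98. IPO9 lost its call with the correction (-0.12, edgeR adjusted p = 0.495), and IPO11 without Neoribocic replicate 1 (0.0517). IPO4 was above DMSO in both Neoribocic libraries, at 46.8 and 55.4 CPM against 38.7 and 25.8 CPM with DMSO. It stood at 0.66 ± 0.26 (edgeR adjusted p = 0.0670), and was below 0.05 without DMSO replicate 1 (0.99, 0.0383), with upper-quartile factors (0.0298) and with DESeq2 (0.0470). Of the exon bases of IPO4 69.3%, and of its 50-base words 95.1%, are shared with another gene on its strand, so its level is uncertain. IPO11 shares 22.6% of its exon bases with a gene on its strand. Of the 50-base words of IPO7 12.4% occur in other annotated genes.

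The transportins import proteins with a proline-tyrosine signal, such as hnRNP proteins, or with arginine-serine repeats in the case of TNPO3. TNPO2 (ENSG00000105576) rose to 195 and 185 CPM with Neoribocic, against 91.3 and 104 CPM with DMSO, a change of 0.96 ± 0.19 (edgeR adjusted p = 0.00549). It stood at 0.90 after the correction and passed under all 17 alternatives. Its paralog TNPO1 fell to 92.6 and 130 CPM with Neoribocic, against 290 and 207 CPM with DMSO, a change of -1.16 ± 0.25 (edgeR adjusted p = 0.00795; corrected -0.81), and 0.0666 without Neoribocic replicate 1. Per length, the ratio of TNPO2 to TNPO1 was 1.24 and 0.845 in the Neoribocic libraries and 0.186 and 0.298 in the DMSO libraries. This difference follows from the levels of TNPO2 and TNPO1 given above and is no further evidence. TNPO3 stood at -0.46 ± 0.20 (edgeR adjusted p = 0.0948).

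**Figure D5:**
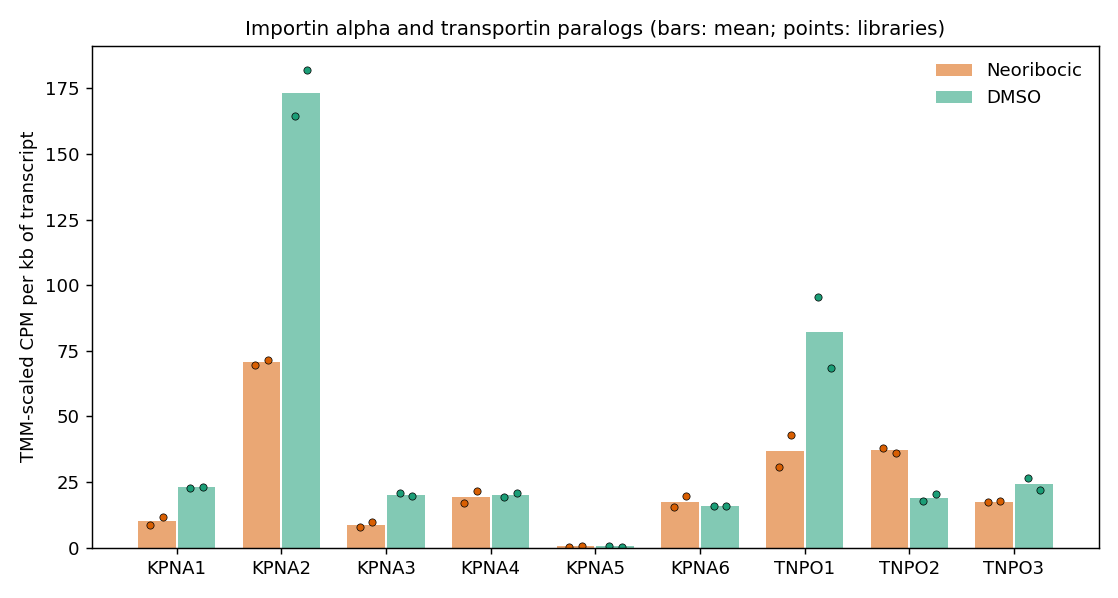
TMM-scaled CPM per kb of annotated transcript for the importin alpha and transportin genes, Neoribocic to the left of DMSO; bars are group means and points are libraries. KPNA1, KPNA2, KPNA3 and TNPO1 are lower with Neoribocic, TNPO2 is higher, and KPNA4, KPNA5 and KPNA6 overlap between the groups.

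Exportins fell in 6 of 7 cases. CSE1L (ENSG00000124207), also called CAS, returns importin alpha to the cytoplasm. It had 74.7 and 90.5 CPM with Neoribocic and 586 and 494 CPM with DMSO, a change of -2.71 ± 0.21 (edgeR adjusted p = 5.22e-04; corrected -2.17), 6.54-fold higher with DMSO. It ranked second of the 50 genes per length with DMSO and 13th with Neoribocic. The ratio of CSE1L to KPNA2 per length was 0.303 and 0.356 in the Neoribocic libraries and 1.0 and 0.764 in the DMSO libraries. XPO1 (ENSG00000082898), or CRM1, the exportin of leucine-rich export signals, had 90 and 110 CPM with Neoribocic and 369 and 232 CPM with DMSO, a change of -1.59 ± 0.26 (edgeR adjusted p = 0.00280; corrected -0.89). XPO7 had 65.5 and 75.8 CPM with Neoribocic and 167 and 147 CPM with DMSO, a change of -1.15 ± 0.20 (edgeR adjusted p = 0.00318; corrected -0.75). These 3 calls held under each alternative run.

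The calls of the other exportins depended on the setting. XPOT, the tRNA exportin, stood at -1.07 ± 0.23, and XPO4, which serves eIF5A, at -1.21 ± 0.24 (edgeR adjusted p = 0.00714 and 0.00601). Both lost the call without Neoribocic replicate 1 (0.0652 and 0.0509) and with the correction (-0.30 and -0.22, adjusted p = 0.152 and 0.261). XPO5, the exportin of microRNA precursors, stood close to the threshold at -0.57 ± 0.19 (edgeR adjusted p = 0.0414). It did not pass without any 1 of the 4 libraries (0.0704 to 0.167), with library totals (0.212), upper-quartile factors (0.0923) or the correction (-0.24, 0.230). XPO6, the exportin of actin and profilin, was at -0.47 (edgeR adjusted p = 0.0833) and passed with the correction (-0.57, adjusted p = 0.0239).

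RAN (ENSG00000132341) had 178 and 155 CPM with Neoribocic and 254 and 240 CPM with DMSO, a change of -0.57 ± 0.19 (edgeR adjusted p = 0.0408). The call was as close to the threshold as that of XPO5. The call of RAN was lost without any 1 of the 4 libraries (0.0868 to 0.179), with library totals (0.181), upper-quartile factors (0.0890), no robust option (0.0502) and the correction (-0.27, 0.208). Of the 50-base words of RAN 9.53% occur in other annotated genes. Per length, the ratio of RAN to KPNB1 was 1.53 and 1.20 in the Neoribocic libraries and 0.738 and 0.664 in the DMSO libraries. With the correction the log2 fold changes of RAN and KPNB1 were -0.27 and -0.88. Ratios per length, here and above, are from values without the length and GC correction. Each follows from the levels of its genes given above and is no further evidence.

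The rest of the pathway was taken from 4 further lists. Of their 40 genes 38 were tested, 7 fell (18.4%) and 4 rose (10.5%), beside 21.3% and 19.1% of all genes tested. With the correction 9 fell and 1 rose, beside 19.1% and 17.2%. The rises numbered 6 with upper-quartile factors. The median log2 fold change was -0.22, and -0.20 without DMSO replicate 1 and -0.23 without Neoribocic replicate 1. In both of these runs fewer genes were called, among the further genes and over all genes tested. Among 7 further pore genes tested, AHCTF1 (ELYS), which seeds pores on chromatin after mitosis, fell to 31.3 and 36.7 CPM with Neoribocic against 125 and 91.8 CPM with DMSO. Its change was -1.67 ± 0.23 (edgeR adjusted p = 0.00154; corrected -0.72). Its transcript shares 50% of its 50-base words with other annotated genes, first among them the pseudogene AHCTF1P1, so its level is uncertain. SEC13, shared by the Y complex and the COPII coat, rose by 0.66 ± 0.20 (edgeR adjusted p = 0.0298), a call lost with the correction (0.07, adjusted p = 0.687), without either DMSO replicate (0.121 and 0.0621) and without Neoribocic replicate 1 (0.179). Of the 6 Ran cycle genes edgeR called 0, with DESeq2 and limma-voom also at 0 and 1 gene, RANGRF, at an unadjusted p below 0.05. RCC1, the exchange factor that loads RAN with GTP, stood at 0.13, and RANGAP1, the activator of its GTPase, at -0.27. With the correction RANBP1 and RANBP3, which bind RAN-GTP, were called lower (edgeR adjusted p = 0.0110 and 0.0147). RANBP1 shares 30.2% of its 50-base words with other annotated genes, and 82% of the exon bases of RANGRF lie opposite SLC25A35.

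Among 7 tested karyopherins and cargo adaptors outside the 50 genes, 3 fell (42.9%) and 0 rose by edgeR, beside 21.3% and 19.1% of all genes tested. With the correction 1 fell. DESeq2 called 1 riser in this list, SNUPN, the adaptor that imports spliceosomal snRNPs, and limma-voom called 0. SNUPN also had an unadjusted p below 0.05 in edgeR, and shares 23.8% of its 50-base words with other annotated genes. RANBP17, a relative of XPO7, fell by 1.23 ± 0.29 (edgeR adjusted p = 0.0112) and HEATR3, which helps import ribosomal protein L5, by 0.92 ± 0.22 (edgeR adjusted p = 0.0127). RANBP17 lost its call with the correction (-0.68, 0.0536), without DMSO replicate 1 (0.0512) and without Neoribocic replicate 1 (0.0915), and HEATR3 without DMSO replicate 2 (0.0548), Neoribocic replicate 1 (0.0582) or 2 (0.0611) and with library totals (0.0564). In the list of 18 mRNA export genes 3 rose and 3 fell (16.7% each), beside 19.1% and 21.3% of all genes tested. With the correction 1 rose and 5 fell, beside 17.2% and 19.1% of all genes. The median of this list was -0.02, and 0.01 without DMSO replicate 1 and -0.04 without Neoribocic replicate 1, with fewer rises in both of these runs. NXT1, the partner of the mRNA export receptor NXF1, rose by 0.90 ± 0.22, and DDX19B, the helicase that releases mRNA at NUP214, by 0.74 ± 0.22 (edgeR adjusted p = 0.0139 and 0.0262). NXT1 lost its call with the correction (0.21, 0.265), without DMSO replicate 1 (0.0709) and without Neoribocic replicate 1 (0.0973), and DDX19B without DMSO replicate 1 (0.123), Neoribocic replicate 1 (0.133) or Neoribocic replicate 2 (0.0534). Of the 50-base words of DDX19B 40.8% occur in other annotated genes. THOC2 and THOC1 of the THO complex fell by 1.78 and 1.17 (edgeR adjusted p = 0.00426 and 0.00740), THOC1 at 0.0614 without Neoribocic replicate 1.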

How the data were processed

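The authors deposited whole-number counts per Ensembl gene, with no normalization seen in the values. No label names an aligner, counter or strand setting. Per the submitters' processing notes the builds were GRCm38 and mm10, both of mouse, whereas the IDs are human; the counts are therefore given without coordinates. Among counts below 20, 62.3% to 65.4% were even, as happens if each mate of a read pair adds a count, which would make the totals overstate the precision.

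The test was edgeR's (4.0.16, R 4.3.3) robust quasi-likelihood test of group alone over all genes that filterByExpr kept, after TMM scaling, with Benjamini-Hochberg adjustment and a threshold of 0.05. The SE is the log2 fold change divided by the square root of F. The fit was tested on simulated data. Symbols came from the gene name table and GENCODE release 29, which also gave 1 transcript per gene for length and GC content (smoothed with mgcv 1.9-3), exon overlap and shared 50-base words. Sequences are RefSeq's. Members and lists were chosen with earlier results of these data known. Named with each library's value are 6 fixed genes and up to 3 called genes per direction and role with the smallest p, and, from each further list, up to 2 per direction. Genes shown for comparison (NUP62, NUP188, NUP210, IPO4, KPNA4, KPNA5, KPNA6 and TNPO1), the ratios and the printed promoters were chosen after their values were seen. Alternatives were other scalings and filters, DESeq2 1.42.0, limma-voom (limma 3.58.1), no robust option, the replicate block, the correction, halved counts, no mitochondrial genes and each library left out.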

Additional observations from a re-analysis of the deposited data

How the results depend on the processing

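Of the 33 called genes among the 50, 19 kept their call and direction under all 17 alternatives and 22 with each library left out in turn. With 1 library left out, the other group's spread stands in for that of the lone sample; the genes changed by Neoribocic ranged in number from 2468 to 4536 (5610 with every library), the falls among the 50 from 21 to 30, the falls among receptors from 11 to 15, the falls among pore subunits from 10 to 15, the rises among the 50 from 1 to 2, and the calls on the 40 further genes from 3 to 8 (11 with every library). The rises numbered 2 with upper-quartile factors, 2 with DESeq2 and 4 with the correction, with or without the replicate block. KPNA4 turned to 0.90 with the correction and to 0.91 with the block added; the cause was not tested. Upper-quartile factors and library totals moved the median of all genes to 0.13 and 0.18. Over the other alternatives the median of the 50 genes ran from -1.21 without Neoribocic replicate 2 to -0.48 with the block and the correction. The deviations of same-numbered libraries from their group means correlated at -0.055, so no shared deviation was seen. With 2 libraries per group this cannot show whether the numbers pair them. The replicate block gave 30 falls among the 50 genes and 5594 calls in all, and XPO5 and RAN lost their calls (edgeR adjusted p = 0.0747 and 0.0616). With the correction added NUP153 lost its call too (0.0506). RLE factors, both other filters, limma-voom, halved counts and leaving out mitochondrial genes changed no call among the 50. The number of libraries limits what can be seen: a change that missed the threshold may still be present.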
